A study of Homo sapiens with 18 samples.

Results

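Tubulin genes were followed through ribosome profiling (Ribo-seq) and mRNA-seq of IMR90 cells, fibroblasts from human fetal lung grown as a cell line. The members were the alpha tubulin genes TUBA1A, TUBA1B, TUBA1C and TUBA4A and the beta tubulin genes TUBB, TUBB2A, TUBB3, TUBB4B and TUBB6. They were taken by symbol, all 9 were found among the 38716 symbols listed, and all 9 passed the filter on low counts in both assays. There were 18 libraries, 3 replicates for each of 3 conditions and 2 assays. The young condition was of proliferating cells at low passage, the old condition of cells at high passage in replicative senescence, and the ICM condition of low-passage cells given inflachromene, which is a compound known to bind HMGB1 and HMGB2, proteins that bend DNA in chromatin. The labels of these libraries give no dose, treatment time, passage number or batch, and all groups are of the same line. The study describes its data on replicative senescence as made earlier than those on ICM, so that in comparisons with the old libraries the batch and the condition cannot be told apart. Each lysate, made with cycloheximide, gave 1 Ribo-seq and 1 poly(A) mRNA-seq library.

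Alpha and beta tubulin pair into the dimer that polymerizes into microtubules, the tracks and spindle fibres of the cell. Vertebrates encode each chain in several genes, called isotypes, whose proteins differ mostly in a short acidic tail. The level of tubulin mRNA is known to be held in check by tubulin itself: when unpolymerized dimer accumulates, the adaptor TTC5 recognizes the first residues of tubulin chains as they leave the ribosome and, through SCAPER, brings the CCR4-NOT deadenylase to the mRNA being translated. A second known regulation acts on the last residue of alpha tubulin, a tyrosine that vasohibins remove and the ligase TTL restores.

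The coding sequences carry both features and also set what the counts can tell apart. The first 30 coding bases are shown for the genes on which the results turn, with the first 4 codons, which encode the residues that TTC5 recognizes, in capitals.
TUBA1A: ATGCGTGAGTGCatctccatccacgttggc
TUBA1B: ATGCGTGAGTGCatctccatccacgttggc
TUBA1C: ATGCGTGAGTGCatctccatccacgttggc
TUBA4A: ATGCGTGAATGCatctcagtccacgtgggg
TUBB: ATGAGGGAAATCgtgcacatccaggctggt
TUBB2A: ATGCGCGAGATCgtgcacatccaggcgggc
TUBB6: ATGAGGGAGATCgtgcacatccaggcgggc

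TUBA1A, TUBA1B and TUBA1C are letter for letter the same over these 30 bases. TUBA4A differs from them in its bases, but its first 4 codons encode the same residues. The last 36 coding bases of TUBA1C and TUBA4A follow, stop codon included, with the last sense codon in capitals.
TUBA1C: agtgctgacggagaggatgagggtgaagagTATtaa
TUBA4A: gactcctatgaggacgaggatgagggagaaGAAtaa

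TUBA1C ends in TAT, a tyrosine codon. TUBA4A ends in GAA, a glutamate codon, so that its chain is made without the terminal tyrosine. In the GENCODE annotation of GRCh37, TUBA1B lies at chr12:49521565-49525178 and TUBA1A at chr12:49578578-49582863, both on the minus strand, and TUBA1C lies at chr12:49658865-49668383 on the plus strand. TUBA4A lies elsewhere, at chr2:220114432-220118640 on the minus strand. TUBB was annotated at chr6:30688129-30693199 and TUBB2A at chr6:3153900-3157778. Each of the 9 main transcripts has 4 exons and a coding sequence of 1332 to 1353 bases.

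Depth differed strongly between the assays. The mRNA-seq libraries held 7902427 to 14144455 reads in coding genes, but the Ribo-seq libraries held only 46239 to 1718521 reads in coding sequences (CDS), a 37.2-fold range. The libraries of young replicate 1 and old replicate 2 stood apart by the low share of their Ribo-seq reads in CDS, 34.4% and 15.0%, and ICM replicate 3 was the shallowest. Ribo-seq results are therefore also given without those 3 lysates. All 10 fibroblast markers were detected in every condition, at a summed 34585 to 39243 mRNA-seq CPM (reads of a gene scaled to a common library size) in young, 31872 to 37162 in old and 14525 to 15115 in ICM cells. Summed markers reached at most 4.41 CPM for endothelial cells (2 of 3 genes read), 2.35 for epithelial cells (4 of 5) and 0.601 for immune cells (2 of 3), with CDH5 and CD3E at 0 in every library. Neuronal markers (3 of 4 genes read, with ELAVL3 at 0) summed to 9.68 to 10.2 in young, 3.89 to 5.12 in old and 4.83 to 6.20 in ICM cells. Among the fibroblast markers, COL1A1 stood at 13266 to 15352 CPM in young and 2962 to 3201 in ICM libraries. COL1A2, COL3A1, COL6A1, VIM, THY1, PDGFRB and FN1 were also lower in every ICM than in every young library. DCN was higher in ICM, at 1467 to 1741 against 1380 to 1445 CPM, and LUM overlapped. The part of the lower fibroblast sum in the ICM results was not tested. Fewer cells of a type and less RNA per cell cannot be told apart in such libraries.

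The counts of TUBA1A, TUBA1B and TUBA1C are not independent measurements. Their coding sequences are 95.9% to 97.2% identical, only 13.2% to 26.6% of their 30-base windows, about the length of a footprint, occur in 1 of the 72 tubulin genes and pseudogenes compared, and the deposited counts hold fractions of reads. In Ribo-seq the CDS counts of the 3 genes in a library lay within 0.244% to 17.7% of each other, with a median of 6.92%. In mRNA-seq they lay within 4.70% to 16.3%. Every 50-base window within their 5′ UTRs, by contrast, occurred in 1 gene only. TUBB2A shares 76.5% of its 30-base CDS windows with TUBB2B, TUBB shares 48.1% with the pseudogene TUBBP1, and TUBA4A shares 18.2% with TUBA4B. TUBB6 was the most distinct, with 89.4% of its windows unique.

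The mRNA of the most abundant tubulins fell in old and in ICM cells, and further in ICM than in old cells, while TUBA4A rose. Levels are given in CPM with TMM scaling, over the 5′ UTR, CDS and 3′ UTR reads of a gene, and changes were tested with edgeR at an adjusted p under 0.05 (Benjamini-Hochberg over 13173 genes). In ICM against young cells 2 members rose and 7 fell, where 34.9% of all genes tested rose and 36.1% fell. In old against young cells 3 rose and 6 fell, where 32.4% of all genes rose and 33.7% fell. Between old and ICM cells 1 member was higher and 6 lower in ICM, against 30.7% and 32.6% of all genes. The median log2 change of the members was -0.60 in ICM and -0.47 in old cells, whereas that of all genes tested was -0.0070 and -0.015. Both comparisons share the young libraries.

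**Figure D1:**
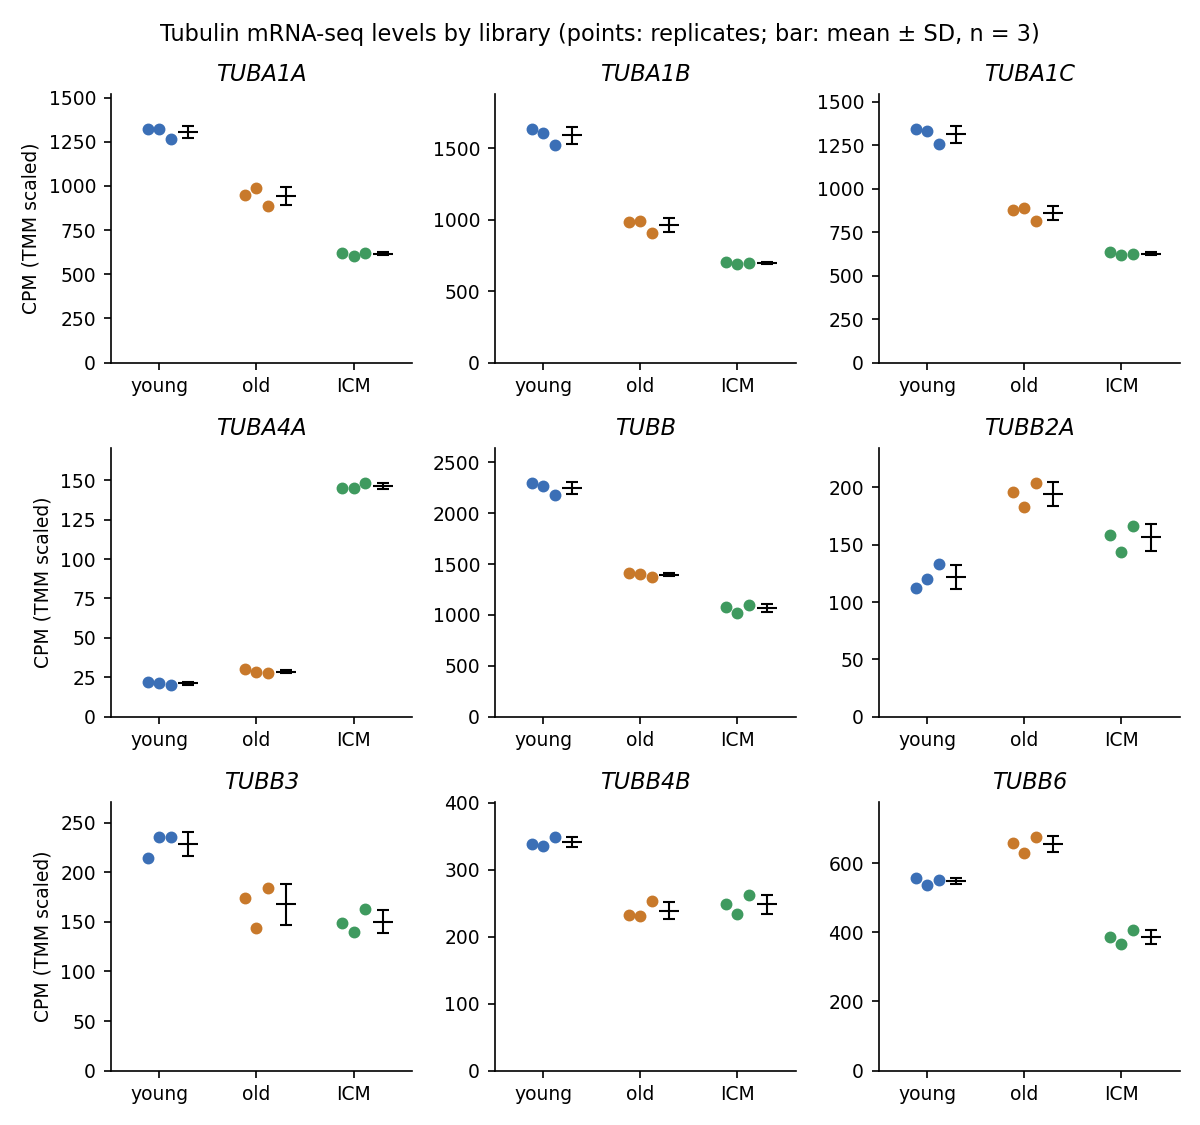
mRNA-seq level of each tubulin gene, in TMM-scaled CPM on the y axis, by condition on the x axis, with 1 point per library and the mean ± SD (n = 3) as a black bar. The young, old and ICM libraries step down without overlap for TUBA1A, TUBA1B, TUBA1C and TUBB, and the 3 ICM libraries of TUBA4A sit at 145 to 148.

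TUBA1B, a major ubiquitous alpha isotype, was read at 1638, 1607 and 1525 CPM in the young libraries, at 987, 992 and 909 CPM in the old and at 706, 688 and 695 CPM in the ICM libraries. All 3 conditions were separate, with young highest and ICM lowest. The log2 change was -1.19 (SE 0.062, edgeR adjusted p = 8.43e-14) in ICM and -0.72 (SE 0.061, adjusted p = 6.98e-10) in old cells. TUBA1A, the isotype best known from neurons, had a mean of 1304 ± 32.2 CPM (SD, n = 3) in young, 941 ± 51.4 in old and 615 ± 8.38 in ICM cells. TUBA1C had 1312 ± 47.9, 860 ± 39.1 and 627 ± 8.10 CPM. Their changes of -1.08 and -1.07 in ICM and of -0.47 and -0.61 in old cells passed the test, but each is in large part a reading of the same reads. When the 3 genes were summed before the fit, the change was -1.12 (SE 0.063) in ICM against young, -0.61 (SE 0.062) in old against young and -0.51 (SE 0.062) in ICM against old cells, with edgeR adjusted p of 3.29e-13, 1.53e-08 and 2.26e-07.

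Reads in the 5′ UTR were used to tell the 3 genes apart, in a fit chosen after seeing the data. These counts also held fractions, such as 1045.17 for TUBA1A in young replicate 1, so that part of these reads was divided as well. In young cells TUBA1B held 49.4% to 51.4% of the 5′ UTR reads of the 3, TUBA1A held 26.5% to 28.9% and TUBA1C held 21.1% to 22.1%. In old cells the share of TUBA1B was 38.0% to 40.8% and that of TUBA1A 36.9% to 39.4%, so that the ranges of TUBA1B and TUBA1A overlapped. In ICM cells TUBA1B held 42.4% to 42.8%, TUBA1A 29.2% to 30.6% and TUBA1C 27.0% to 28.4%. The CDS reads of the same libraries showed far more even shares, from 31.2% to 36.2% for any of the 3 genes in any library. On 5′ UTR reads alone TUBA1B changed by -1.12 on the log2 scale (SE 0.12, edgeR adjusted p = 8.81e-07) in old against young cells, TUBA1C by -0.70 (SE 0.12, adjusted p = 0.000215) and TUBA1A by -0.28 (SE 0.13, adjusted p = 0.0978), which did not pass. In ICM against young cells all 3 fell on these reads, by 1.46, 0.86 and 1.08 on the log2 scale for TUBA1B, TUBA1C and TUBA1A. The difference between the genes' changes was not tested.

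**Figure D2:**
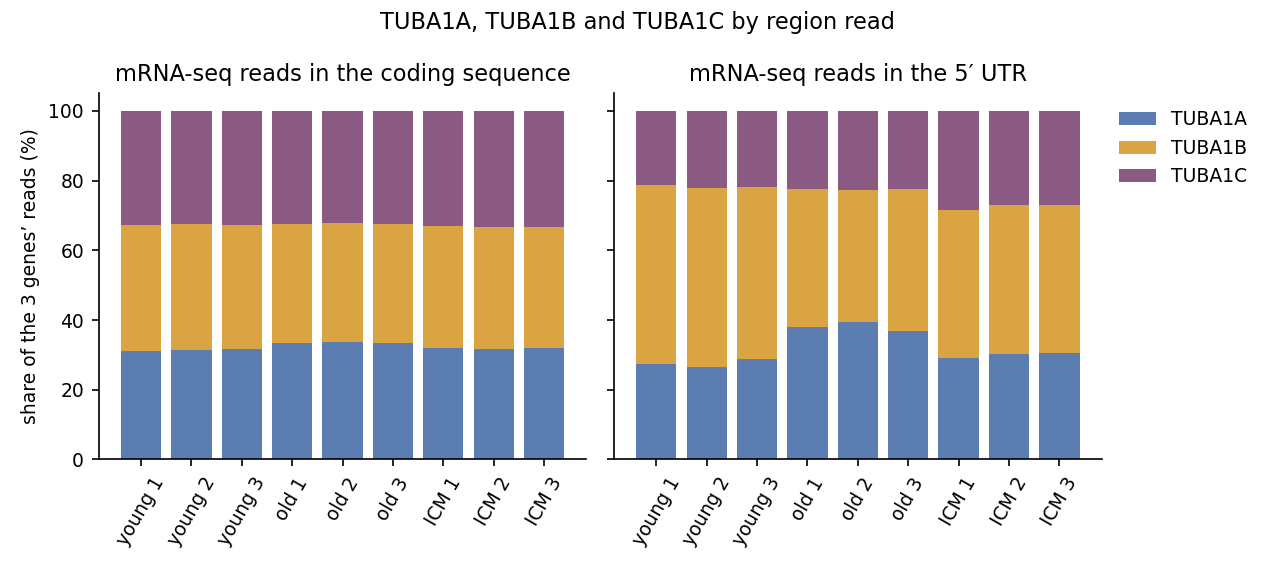
Share of the mRNA-seq reads of TUBA1A, TUBA1B and TUBA1C that was assigned to each gene (y axis, %), in the coding sequence (left) and the 5′ UTR (right), with 1 stacked bar per library on the x axis. In the coding sequence the shares stay between 31.2% and 36.2%, while in the 5′ UTR TUBA1B takes 49.4% to 51.4% in young and 38.0% to 40.8% in old libraries.

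TUBA4A, whose chain is made without the terminal tyrosine, went the other way. Its young libraries were read at 21.96, 21.5 and 20.2 CPM, its old libraries at 29.996, 28.3 and 27.6 CPM and its ICM libraries at 145, 145 and 148 CPM. No libraries of different conditions overlapped. The log2 change was 2.79 (SE 0.070, edgeR adjusted p = 2.15e-19), or 6.89-fold, in ICM, and 0.43 (SE 0.080, adjusted p = 6.01e-05) in old against young cells. In ICM against old cells it was 2.35 (SE 0.066, adjusted p = 1.99e-18). On 5′ UTR reads the rise in ICM was 3.19 (SE 0.21), while the change in old cells, 0.57 (SE 0.26, adjusted p = 0.108), did not pass the test. TUBA4B, the neighbouring gene that overlaps TUBA4A on the other strand, rose from 7.13 ± 0.294 to 37.5 ± 0.762 CPM in ICM cells (n = 3, log2 change 2.39). Whether the counting used the strand is not given in the sources used here, so reads in the stretches where the pair overlaps cannot be told apart. Of the 50-base CDS windows of TUBA4A, 8.55% were shared in sequence with TUBA4B.

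TUBB, the main beta isotype of dividing cells, was read at 2301, 2269 and 2183 CPM in young, 1410, 1401 and 1377 CPM in old and 1081, 1022 and 1100 CPM in ICM cells. Again the conditions were separate, in the same order as for the TUBA1 genes. Its log2 change was -1.08 (SE 0.060, edgeR adjusted p = 3.31e-13) in ICM and -0.69 (SE 0.060, adjusted p = 1.08e-09) in old cells. TUBB4B, a ubiquitous isotype also used in cilia, had means of 341 ± 7.47 CPM in young, 239 ± 12.8 in old and 248 ± 13.9 in ICM cells (n = 3). TUBB3, a neuronal isotype also made by dividing cells of other origins, had 229 ± 12.3, 168 ± 20.7 and 150 ± 11.7 CPM. Both genes were lower in every old and ICM library than in every young one, but old and ICM libraries overlapped, and the log2 difference between ICM and old cells was 0.055 (SE 0.063, adjusted p = 0.462) for TUBB4B and -0.15 (SE 0.080, adjusted p = 0.1005) for TUBB3. The latter passed the test without old replicate 2 (-0.25), without ICM replicate 3 (-0.21) and without both of these lysates and young replicate 1 (-0.32, adjusted p = 0.000587).

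TUBB6, an isotype associated with less stable microtubules, was the gene on which old and ICM cells parted. Its libraries stood at 556, 537 and 550 CPM in young, 659, 629 and 677 CPM in old and 387, 366 and 406 CPM in ICM cells. Every old library was above, and every ICM library below, every young library. The log2 change was 0.26 (SE 0.061, edgeR adjusted p = 0.000752) in old, -0.50 (SE 0.061, adjusted p = 1.57e-07) in ICM against young cells and -0.76 (SE 0.061, adjusted p = 2.61e-10) in ICM against old cells. On 5′ UTR reads alone the change in old cells, 0.25 (SE 0.13, adjusted p = 0.159), did not pass. Nor did it on 3′ UTR reads alone, at 0.13 (SE 0.10, edgeR adjusted p = 0.334). TUBB2A stood at 113, 120 and 133 CPM in young, 196, 183 and 204 CPM in old and 159, 144 and 167 CPM in ICM cells. It was higher in both than in young cells without overlap, with log2 changes of 0.67 (SE 0.072, adjusted p = 3.48e-08) in old and 0.36 (SE 0.072, adjusted p = 0.000139) in ICM cells. Summed with its near-copy TUBB2B it changed by 0.62 (SE 0.069) and 0.23 (SE 0.069), which also passed the test. On 3′ UTR reads alone neither change of TUBB2A passed, at 0.15 (SE 0.39) in old and -0.0084 (SE 0.40) in ICM cells.

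Summed over isotypes, alpha tubulin mRNA stood at 4330, 4283 and 4070 CPM in young, 2844, 2894 and 2637 CPM in old and 2110, 2060 and 2085 CPM in ICM cells. Beta tubulin mRNA stood at 3523, 3496 and 3451 CPM in young, 2672, 2589 and 2695 CPM in old and 2024, 1906 and 2097 CPM in ICM cells. For each chain the 3 conditions were separate. Relative to young cells the alpha sum was at 0.493 of its level in ICM (log2 difference -1.02, SE 0.029) and 0.660 in old cells (-0.60, SE 0.050), and the beta sum at 0.575 (-0.80, SE 0.041) and 0.760 (-0.40, SE 0.020). A sum over chosen genes was not tested.

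**Figure D3:**
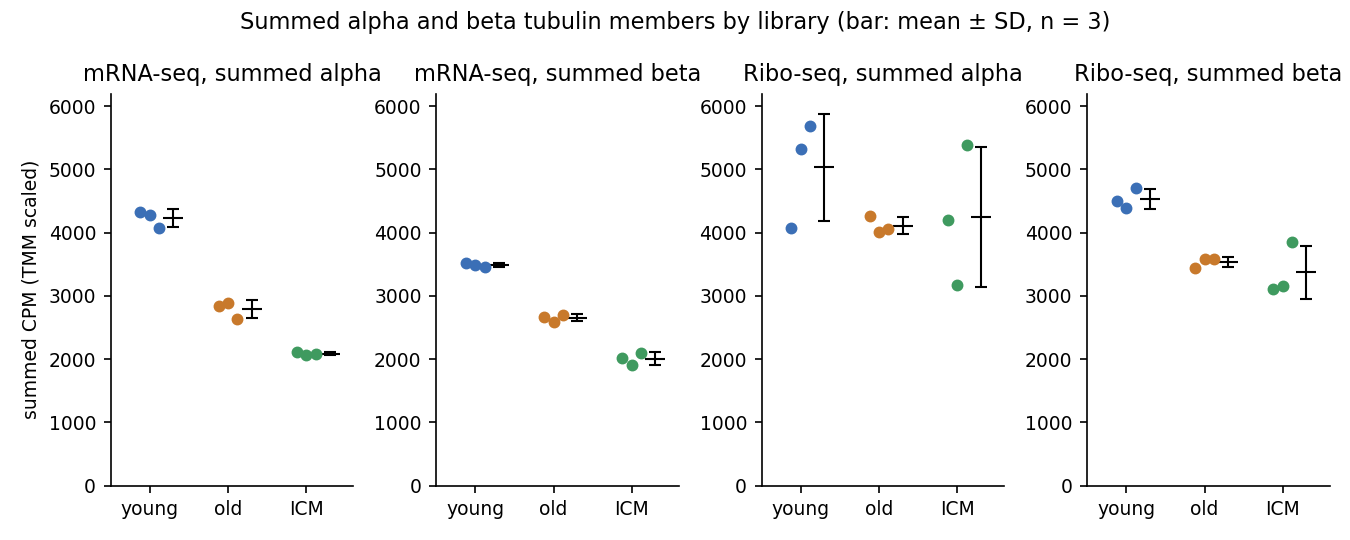
Summed level of the 4 alpha and the 5 beta tubulin genes per library, in TMM-scaled CPM on the y axis, by assay, chain and condition, with the mean ± SD (n = 3) beside the points. The mRNA sums separate by condition, from 4070 to 4330 for alpha in young to 2060 to 2110 in ICM, while the alpha footprint sums of the conditions overlap.

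Compared per length, TUBB was the most abundant of the 9 mRNAs in every condition. In CDS reads per kilobase, scaled to the CDS reads of the library, it stood at 1897 ± 40.9 in young cells, ahead of TUBA1B at 1551 ± 50.8, TUBA1C at 1410 ± 35.4 and TUBA1A at 1352 ± 28.4 (SD, n = 3). TUBB6 at 449 ± 16.1, TUBB4B at 334 ± 3.61, TUBB3 at 215 ± 13.0, TUBB2A at 114 ± 3.05 and TUBA4A at 22.8 ± 0.780 followed, with no overlap between neighbours in this order. In old cells TUBB2A passed TUBB3, and TUBA1B, TUBA1A and TUBA1C overlapped. In ICM cells TUBA4A rose to the seventh place, at 158 ± 2.77, where it overlapped TUBB3 at 146 ± 13.7, which in turn overlapped TUBB2A at 140 ± 7.57. The order among TUBA1A, TUBA1B and TUBA1C rests on the divided reads described above.

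The isotype mix moved with these levels. Per kilobase, TUBA4A made up 0.525% ± 0.00436 of the alpha mRNA in young, 1.05% ± 0.0632 in old and 7.16% ± 0.105 in ICM cells (SD, n = 3). Among the beta genes TUBB held 63.1% ± 1.12 in young but 51.2% ± 1.61 in old and 51.7% ± 0.659 in ICM cells. TUBB6 held 14.9% ± 0.594 in young, 23.5% ± 0.866 in old and 18.3% ± 0.404 in ICM cells, higher in both than in young cells without overlap, and TUBB4B went from 11.1% ± 0.131 in young to 14.1% ± 0.0636 in ICM cells, whereas it held 10.5% ± 0.359 in old cells. TUBB2A held 3.79% ± 0.117 in young, 7.90% ± 0.102 in old and 7.83% ± 0.0920 in ICM cells. The ratio of alpha to beta CDS reads per kilobase was 1.40 to 1.47 in the young, 1.148 to 1.348 in the old and 1.18 to 1.28 in the ICM libraries. The old and ICM ranges both lay below the young range and overlapped each other.

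Ribosome footprints changed in the direction of the mRNA for all 9 members in old and for 8 in ICM against young cells, the exception being TUBB6, but most of these changes did not pass the test at this depth. Of the 9 members, in ICM against young cells TUBA4A rose and TUBB fell, where 13.7% of the 4643 genes tested rose and 12.9% fell. In old against young cells TUBB2A rose and TUBB fell, where 19.3% of genes rose and 17.0% fell. In ICM against old cells TUBA4A was higher, where 5.79% of genes were higher and 7.62% lower. No member was lower there by edgeR, with 1 lower at an unadjusted p under 0.05 and 0 by DESeq2. DESeq2 called 4.01% of all genes lower. The median log2 change of the members was -0.38 in ICM and -0.31 in old against young cells, and that of all genes tested was -0.00045 and 0.017.

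**Figure D4:**
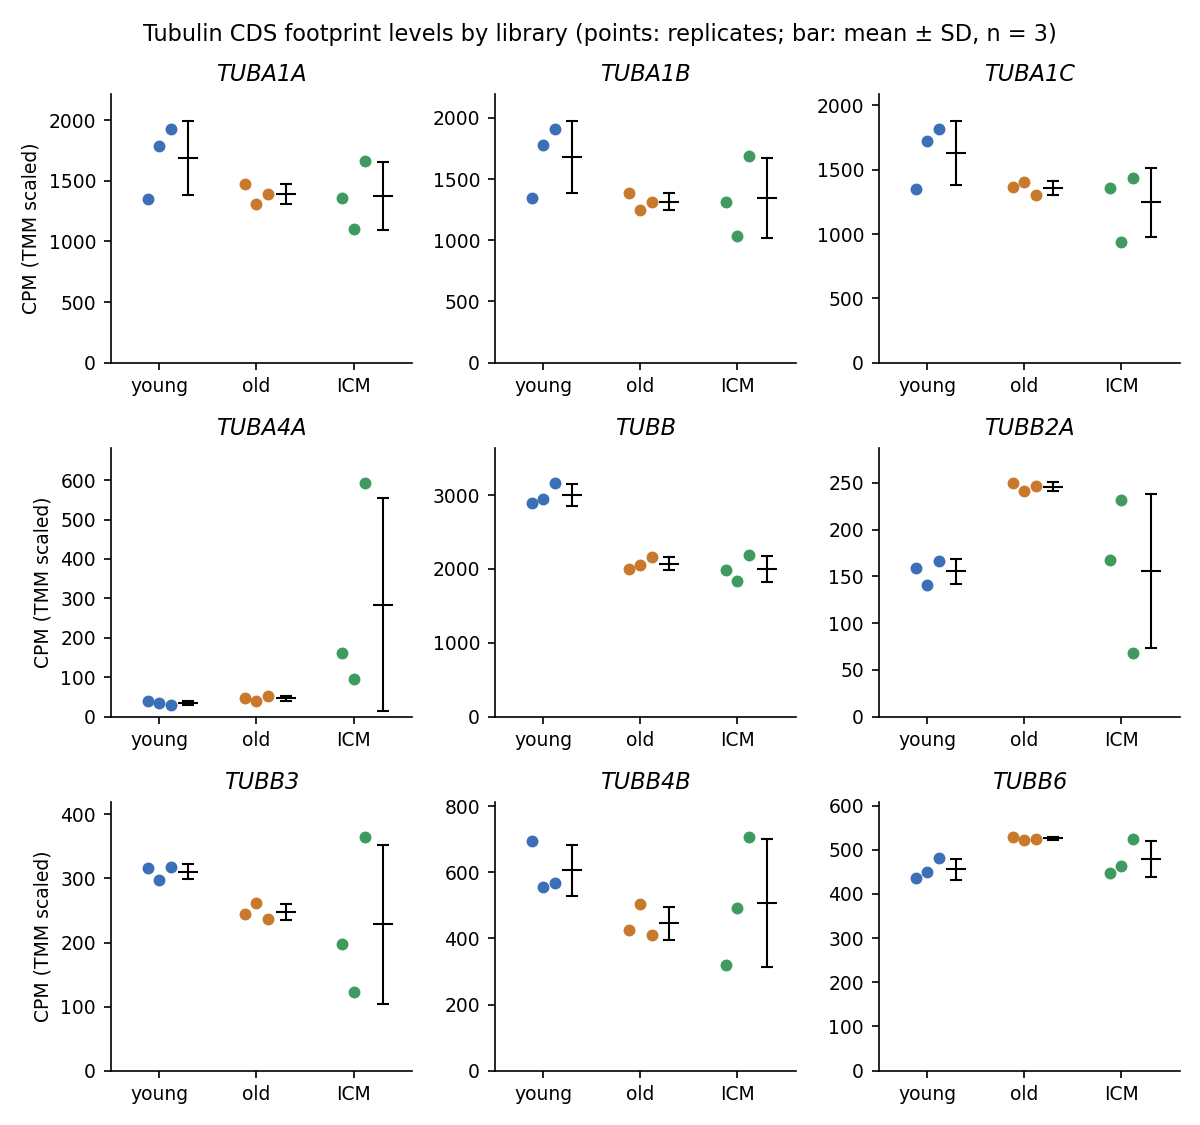
Footprint level of each tubulin gene, in TMM-scaled CPM of CDS reads on the y axis, by condition on the x axis, with 1 point per library and the mean ± SD (n = 3) as a black bar. TUBB separates young libraries (2892 to 3169) from old and ICM libraries (1842 to 2192), and ICM replicate 3 is far above the other libraries for TUBA4A.

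TUBB footprints stood at 2892, 2950 and 3169 CPM in young, 1995, 2052 and 2167 CPM in old and 1981, 1842 and 2192 CPM in ICM cells. Young libraries were all higher, and old and ICM libraries overlapped. The log2 change was -0.60 (SE 0.16, edgeR adjusted p = 0.00480) in ICM and -0.54 (SE 0.15, adjusted p = 0.00561) in old cells. TUBB2A stood at 158, 141 and 167 CPM in young and 250, 241 and 246 CPM in old cells, without overlap, with a log2 change of 0.67 (SE 0.20, adjusted p = 0.00886), which DESeq2 did not call (adjusted p = 0.205). Its ICM libraries held 34, 17 and 3 reads and ranged from 68.5 to 232 CPM, so that no difference from young cells was detectable. Summed with TUBB2B, it was lower in ICM than in old cells by 0.73 on the log2 scale (SE 0.24, adjusted p = 0.0417).

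TUBA4A footprints were few, with 2, 22 and 48 reads in the young, 66, 2 and 25 in the old and 33, 7 and 26 in the ICM libraries. They corresponded to 39.6, 35.2 and 30.5 CPM in young, 46.9, 40.2 and 51.3 CPM in old and 163, 95.5 and 594 CPM in ICM cells. The conditions did not overlap, but old replicate 2 at 40.2 CPM and young replicate 1 at 39.6 CPM held only 2 reads each. In old against young cells the change of 0.57 (SE 0.39, edgeR adjusted p = 0.259) did not pass. The log2 change in ICM against young cells was 2.75 (SE 0.42, edgeR adjusted p = 5.13e-06), and without the 3 lysates that stood apart it was 2.05 (SE 0.40, adjusted p = 0.000198). Against old cells it was 2.18 (SE 0.41, adjusted p = 0.000137), and 1.45 (SE 0.38, adjusted p = 0.00917) without those lysates.

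Footprints of the TUBA1 genes varied more within the young and ICM groups than within the old. TUBA1B stood at 1347, 1780 and 1912 CPM in young, 1384, 1247 and 1314 CPM in old and 1316, 1037 and 1690 CPM in ICM cells. Young replicate 1 lay among the old libraries, and ICM replicate 3 among the young. The summed TUBA1 genes changed by -0.36 on the log2 scale (SE 0.17, edgeR adjusted p = 0.111) in ICM and -0.31 (SE 0.16, adjusted p = 0.128) in old cells. Without the 3 lysates, TUBA1A, TUBA1B, TUBA1C, TUBB, TUBB3 and TUBB4B all fell in ICM against young cells, by 0.66, 0.71, 0.66, 0.77, 0.91 and 0.68 on the log2 scale, and 7 of the 9 members were called in place of 2. Of all 8007 genes tested in that fit 9.50% rose and 13.8% fell. In old against young cells 6 members were called in place of 2, where 16.8% of all genes rose and 15.8% fell, with TUBA1A, TUBA1B, TUBA1C, TUBB and TUBB4B down and TUBB2A up. Leaving out young replicate 1 alone gave 5 calls in each of the 2 comparisons, where 21.4% and 29.8% of all genes were called, and leaving out ICM replicate 3 alone gave 7 in ICM against young cells, where 24.0% were. Without young replicate 3, the deepest young library, none was called in old against young cells by edgeR, where 13.5% of all genes were. The members called were 1 without young replicate 2, old replicate 1 or old replicate 3, where 13.2%, 16.6% and 20.5% of all genes were. TUBB3 stood at 297 to 318 CPM in young, 236 to 262 in old and 123 to 365 in ICM cells, and TUBB4B at 555 to 693, 410.5 to 503 and 320 to 708 CPM, so that for both genes only the ICM libraries overlapped the others. TUBB6, lower in ICM cells as mRNA, had a footprint change of 0.016 (SE 0.20, adjusted p = 0.960) with all libraries and of -0.14 (SE 0.19, adjusted p = 0.642) without the 3 lysates.

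**Figure D5:**
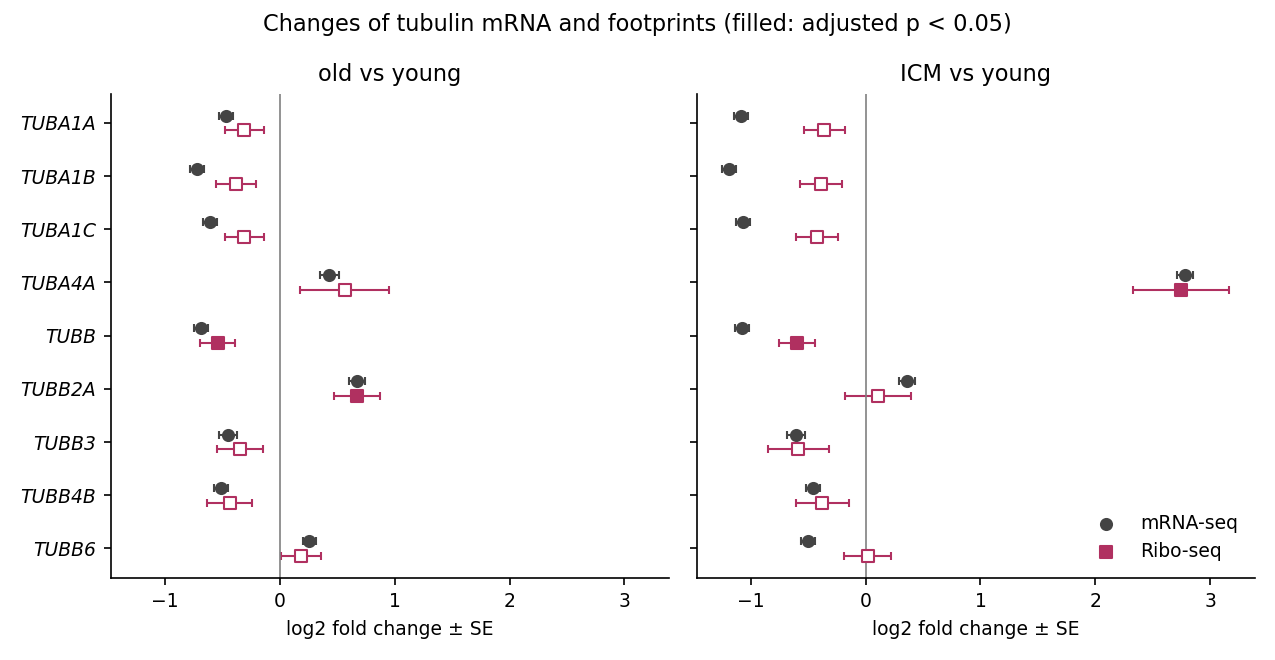
Log2 fold change ± SE (x axis) of each tubulin gene (y axis) against young cells, in old (left) and ICM (right), for mRNA-seq (circles) and Ribo-seq (squares), filled where the edgeR adjusted p was under 0.05. All circles are filled in both panels, TUBA4A stands at 2.79 and 2.75 in ICM, and the TUBA1, TUBB and TUBB6 squares lie to the right of their circles in ICM.

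Summed footprints of the alpha genes stood at 4080, 5325 and 5692 CPM in young, 4262, 4004 and 4058 CPM in old and 4198, 3178 and 5389 CPM in ICM cells. The conditions overlapped, and the log2 difference from young cells was -0.26 (SE 0.26) in ICM and -0.28 (SE 0.15) in old cells. Without the 3 lysates that stood apart the differences were -0.59 (SE 0.21) and -0.40 (SE 0.060), with no overlap with young cells. Each group then held fewer than 3 libraries, on which these SEs and the lack of overlap rest. Summed footprints of the beta genes stood at 4496, 4393 and 4703 CPM in young, 3445, 3581 and 3586 CPM in old and 3114, 3151 and 3859 CPM in ICM cells. Here the young libraries were all higher, with log2 differences of -0.43 (SE 0.10) in ICM and -0.36 (SE 0.034) in old cells. The alpha-to-beta ratio of footprints per kilobase was 0.902 to 1.20 in young, 1.10 to 1.22 in old and 0.992 to 1.38 in ICM libraries, with all conditions overlapping. Per kilobase, TUBA4A made up 0.722% ± 0.225 of alpha footprints in young, 1.22% ± 0.0979 in old and 6.03% ± 4.34 in ICM cells (SD, n = 3). The ICM libraries had 3.91%, 3.17% and 11.02%, and without replicate 3, the shallowest, the mean was 3.54%. TUBB made up 66.5% ± 1.55, 58.7% ± 1.70 and 59.8% ± 3.44 of beta footprints in young, old and ICM cells.

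Translational efficiency, the footprint level relative to the mRNA level of the same lysate, was tested as an interaction term between the assay and the condition. In ICM against young cells TUBA1B rose by 0.75 (SE 0.19, edgeR adjusted p = 0.0327, lysate as a block), the only call among the members, where 2.08% of the 4618 genes tested were called in either direction. TUBA1A at 0.68 (SE 0.19, adjusted p = 0.0506) and TUBA1C at 0.59 (SE 0.19, adjusted p = 0.0977) did not pass, and the 3 genes summed gave 0.72 (SE 0.18, adjusted p = 0.0287). At an unadjusted p under 0.05, 5 members were higher, among them TUBA1A, TUBA1B and TUBA1C, whose reads are shared. The share of all genes at that unadjusted p was not counted. DESeq2 called 0 members, where it called 0.736% of all genes. The log2 ratio of footprint to mRNA CPM of TUBA1B was -0.28, 0.15 and 0.33 in the young, 0.49, 0.33 and 0.53 in the old and 0.90, 0.59 and 1.28 in the ICM lysates. All ICM lysates were above all young and old ones, and the lowest value was that of young replicate 1. Without the 3 lysates that stood apart the TUBA1B change was 0.42 (SE 0.17, adjusted p = 0.178), and no member was called. It was not called either when any of 7 single lysates was left out, all but old replicate 2 and ICM replicate 2, with values from 0.56 to 0.89.

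For the beta genes the interaction in ICM against young cells was 0.44 (SE 0.17, adjusted p = 0.185) for TUBB and 0.48 (SE 0.21, adjusted p = 0.244) for TUBB6. The footprint-to-mRNA log2 ratio of TUBB6 was the lowest of the 9 in young cells, at -0.35, -0.25 and -0.19, and stood at -0.32, -0.27 and -0.36 in old but at 0.21, 0.34 and 0.37 in ICM lysates. The ICM lysates did not overlap the others, although the edgeR test over all genes did not call the change. TUBA4A, TUBB2A, TUBB3 and TUBB4B had interactions of -0.11, -0.24, 0.015 and 0.036. In old against young cells 1.47% of all genes and 0 of the 9 members were called by edgeR, with 1 member at an unadjusted p under 0.05 and 0 by DESeq2. Of all genes, DESeq2 called 0.325% there. In ICM against old cells 0.282% of all genes and again 0 members were called, with 2 members at an unadjusted p under 0.05 and 0 by DESeq2. Of all genes, DESeq2 called 0.152% in this comparison.

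Genes that act on tubulin were read from the same fits, in lists chosen with earlier results of these data known. Of the 11 genes of tubulin mRNA autoregulation, mRNA-seq called 2 up and 7 down in ICM and 1 up and 7 down in old against young cells (median log2 change -0.44 and -0.33). Of all genes tested, 34.9% rose and 36.1% fell in ICM and 32.4% rose and 33.7% fell in old cells, the shares against which the mRNA counts of this and the following lists stand. TTC5, the adaptor that reads nascent tubulin, rose from 20.7 ± 1.05 CPM in young to 33.6 ± 1.44 CPM in ICM cells (n = 3, log2 change 0.70, SE 0.085, edgeR adjusted p = 1.65e-07) and stood at 18.4 ± 1.43 CPM in old cells. SCAPER, which links TTC5 to the deadenylase, rose in old cells from 9.10 ± 1.61 to 15.5 ± 1.47 CPM (0.78, SE 0.13) and stood at 13.9 ± 1.40 CPM in ICM cells. The deadenylase subunits CNOT3 and CNOT6 had the largest falls, by 0.70 (SE 0.079) in ICM and by 0.75 (SE 0.093) in old cells.

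Tubulin chains are folded by prefoldin, the CCT chaperonin and the cofactors TBCA to TBCE with the GTPase ARL2. Of these 20 genes, 15 fell and 5 were not called in ICM, and 1 rose and 10 fell in old against young cells (median -0.36 and -0.20), where 36.1% and 33.7% of all genes fell. ARL2 fell most in ICM cells, from 41.7 ± 2.72 to 16.9 ± 1.05 CPM (n = 3, log2 change -1.30, SE 0.086), and PFDN4 most in old cells, from 27.5 ± 3.97 to 16.3 ± 3.27 CPM. Cofactor TBCB rose in old cells, by 0.33 (SE 0.067). In footprints 19 of the 20 were tested, and 2 fell in ICM while 2 rose and 6 fell in old against young cells, where 12.9% of all genes fell in ICM and 19.3% rose and 17.0% fell in old cells. Of 15 genes of tubulin modification tested, 4 rose and 7 fell in each of ICM and old against young cells (median -0.083 in ICM and -0.23 in old cells), where 34.9% and 32.4% of all genes rose and 36.1% and 33.7% fell. The glutamylase TTLL7 rose most in ICM cells, from 21.8 ± 1.47 to 71.7 ± 2.66 CPM, the acetyltransferase ATAT1 fell most there, by 0.95 (SE 0.15), and the deglutamylase AGTPBP1 fell most in old cells, by 1.00 (SE 0.11).

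Of 24 microtubule-associated protein genes tested, 9 rose and 9 fell in ICM and 9 rose and 5 fell in old against young cells, with the same shares of all genes as for the other lists. MAP2, a dendritic microtubule stabilizer, rose from 2.06 ± 0.365 CPM in young to 86.2 ± 7.94 CPM in ICM cells (n = 3, log2 change 5.37, SE 0.13). STMN3, a stathmin family protein that binds free tubulin dimer, fell from 43.6 ± 3.15 CPM in young to 8.63 ± 1.84 CPM in old and 0.869 ± 0.133 CPM in ICM cells. MAP6 rose in old cells, from 6.03 ± 1.28 to 16.9 ± 0.546 CPM. Of the 10 other tubulin genes tested, 1 rose and 5 fell in ICM and 2 rose and 3 fell in old against young cells, again beside 34.9% up and 36.1% down among all genes in ICM and 32.4% up and 33.7% down in old cells. The largest fall in both was that of TUBE1, the centriolar epsilon tubulin, by 0.87 (SE 0.13) and by 0.49 (SE 0.12).

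The genes with the most similar mRNA pattern were sought by the root mean square difference of mean-centred log2(CPM + 1) over the 9 mRNA-seq libraries. For the summed members the nearest of 4199 genes were EIF2S3B (0.0504), IPO5 (0.0530), EIF2S3 (0.0537) and KPNB1 (0.0563), subunits of the initiation factor eIF2 and nuclear import receptors. IPO5 had means of 305, 217 and 156 CPM in young, old and ICM cells. For TUBA4A the nearest of 10808 genes included GLA (0.107), AKR1B1 (0.136) and CREG1 (0.144). GLA, a lysosomal alpha-galactosidase, had 25.8, 32.7 and 152 CPM.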

How the data were processed

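The deposited tables held estimated counts of reads per gene symbol and region (5′ UTR, CDS, 3′ UTR and others) that the authors had not scaled to depth. Some counts were fractions, so that reads with several matches were divided; how, and whether by strand, is not given in the sources used here. The submitters' processing notes name STAR 2.6.0c, featureCounts, DESeq2, deepTools and GRCh37, without roles. Groups came from the sample titles. The methods call the 3 replicates independent.

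Counts were rounded. mRNA-seq used 5′ UTR, CDS and 3′ UTR reads, and Ribo-seq CDS reads, as the study did. Each assay was fitted with edgeR 4.0.16 in R 4.3.3 (quasi-likelihood test, two-sided, TMM, filterByExpr, 9 libraries, Benjamini-Hochberg over all genes). Translational efficiency was fitted over the 18 libraries with a block for each lysate, the pairing that the methods describe. Deviations of the pairs from their group means correlated with r between -0.143 and 0.171. The study's tool, anota2seq, was not used. Fits were tested on simulated data. SEs came from the change and its F statistic. Alternatives used DESeq2 1.42.0, other filters, scalings, regions and subsets of libraries. Of each other list, the genes named were those with the largest rise and fall of mRNA against young cells, among those that passed the test, had no overlap between groups and had a mean of at least 5 CPM over the 9 mRNA-seq libraries. The members and lists were chosen with earlier results of these data known. Sequences and lengths came from GENCODE transcripts on GRCh37. Depth ranged from 7902427 to 14144455 reads in mRNA-seq and from 46239 to 1718521 in Ribo-seq. A gene with a similar pattern and some coding ends are not reported here.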

Additional observations from a re-analysis of the deposited data

Results flagged for a closer look

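Footprint reads in the 3′ UTRs of the 9 tubulin genes, which the Ribo-seq comparisons did not use, were a larger share of the members' reads in every old than in every young library. The lowest old library had 0.0534%, and the highest young library 0.0488%. The shares rested on 12, 3 and 2 reads in old and 0, 3 and 5 reads in young libraries, and the difference was not tested.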

How the results depend on the processing

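Results were refitted with other size factors, filters, thresholds, regions, near-copies summed, DESeq2, a replicate block and libraries left out, the fit on 5′ UTR reads having been chosen after seeing the data. Depth limits the Ribo-seq values, with 377 to 16336 member CDS reads per library. Over overlapping refits of the same member changes, which are not independent, 1477 results kept direction and call. In 46 a call was lost, in 42 a call was gained, and in 61 the direction turned. The cause of these shifts was not tested, except that a stricter or looser threshold changes calls by construction.

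In mRNA-seq the members called were 9 in ICM and 9 in old against young and 7 in ICM against old cells. On 3′ UTR reads alone they were 5, 4 and 2 of 7 tested, where TUBA1C and TUBA4A had too few reads to be tested. Of all genes, 53.7%, 45.9% and 44.5% were called on those reads. With a log2 change over 0.6 required, 6, 4 and 3 members were called, where 38.4%, 32.6% and 29.4% of all genes were. The members called were 9, 9 and 7 to 8 with any 1 library left out. On 3′ UTR reads TUBB2A stood at -0.0084 in ICM against young, and in ICM against old cells TUBB3 stood at 0.081 on 5′ UTR reads and TUBB4B at -0.014 without the 3 lysates that stood apart.

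In Ribo-seq the 2 members called in ICM against young cells became 1 with a mean of at least 50 counts, a filter that TUBA4A did not pass, or with a log2 change over 0.6 required, 6 at an adjusted p under 0.15 and 7 without the 3 lysates, and ranged from 2 to 7 with 1 library left out, with 5 without young replicate 1 and 7 without ICM replicate 3. The 2 called in old against young cells became 0 without a filter, 4 with at least 50 counts, 1 by DESeq2, 1 with a log2 change over 0.6, and 6 at an adjusted p under 0.15 or without the 3 lysates, and ranged from 0 to 5 with 1 library left out, with 0 without young replicate 3, 1 without young replicate 2, old replicate 1 or old replicate 3, and 5 without young replicate 1. The 1 called in ICM against old cells was 1 in each of those and 0 with at least 50 counts, where TUBA4A was not tested. At an adjusted p under 0.15, 38.5% of all genes were called in ICM and 50.5% in old against young cells. With at least 50 counts these shares were 36.6% and 45.6%, and without the 3 lysates 23.3% and 32.6%. With 1 library left out they ranged from 11.6% to 25.2% and from 13.2% to 36.8%.

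Changes of members that no test called turned direction in footprints. In ICM against young cells TUBB6 stood at -0.16 and TUBB2A at -0.084 without a filter, TUBB6 at -0.14 without the 3 lysates, and they ranged from -0.11 to 0.023 and from -0.14 to 0.18 with 1 library left out. In ICM against old cells TUBA1B stood at 0.013 with relative log expression size factors, 0.021 by DESeq2, 0.10 with at least 50 counts and 0.055 with only the compared groups, where TUBA1A stood at 0.061 and 0.011 and TUBB at 0.054 and 0.00075 under the latter 2. TUBB4B stood at -0.11 without a filter and -0.27 without the 3 lysates. With 1 library left out TUBA1A ranged from -0.26 to 0.040, TUBA1B from -0.24 to 0.10, TUBA1C from -0.32 to 0.013 and TUBB4B from -0.28 to 0.32.

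For translational efficiency in ICM against young cells, the 1 member called became 0 without a filter, by DESeq2, with only the compared groups or without the 3 lysates, 2 with relative log expression size factors, at least 50 counts or TMM over all 18 libraries, and 3 at an adjusted p under 0.15. Of all genes, 2.01%, 3.38% and 2.45% were called under the 3 settings that gave 2, and 6.45% at an adjusted p under 0.15. The number of members called was 0 to 1 with 1 library left out, and 0 without young replicate 1, young replicate 2, young replicate 3, old replicate 1, old replicate 3, ICM replicate 1 or ICM replicate 3. In the other comparisons it was 0 to 0. In ICM against young cells TUBB3 stood at -0.13 and -0.25 and TUBB4B at -0.093 and -0.20 without a filter and without the 3 lysates, and TUBB4B at 0.025 in ICM against old cells by DESeq2. With 1 library left out, TUBB3 ranged from -0.25 to 0.15, TUBB4B from -0.22 to 0.35 and TUBA4A from -0.78 to 0.19 in ICM against young, TUBB2A from -0.014 to 0.077 and TUBA4A from -0.024 to 0.18 in old against young, and TUBB3 from -0.35 to 0.10, TUBB4B from -0.33 to 0.23 and TUBA4A from -0.88 to 0.081 in ICM against old cells.

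Replicate numbers across conditions were not taken as pairs: same-numbered libraries correlated, after removal of the group means, with r from -0.15 to 0.16 in mRNA-seq and from -0.037 to 0.086 in Ribo-seq. With a replicate block the calls were 9, 9 and 7 in mRNA-seq and 2, 1 and 1 in Ribo-seq, where TUBA1B in ICM against old cells stood at 0.011. Without the block on lysates, 3 members were called for translational efficiency in ICM against young cells, where 6.06% of all genes were. They were TUBA1A, TUBA1B and TUBA1C, whose reads are shared. In that fit TUBB3 stood at -0.046 and TUBB4B at -0.014.

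Among the sums, the alpha mRNA difference was -1.36 on 3′ UTR and -1.12 on 5′ UTR reads in ICM against young, -0.69 with plain library totals, -0.83 on 3′ UTR and -0.75 on 5′ UTR reads in old against young, and -0.30 with plain totals and -0.54 on 3′ UTR reads in ICM against old cells. The alpha 3′ UTR values rest on few mRNA-seq reads per library, 15 to 136 for TUBA1A and 37 to 161 for TUBA1B. TUBA1C had 0 to 2 and TUBA4A 0 to 16. The beta mRNA difference was -0.89 on 3′ UTR reads in ICM against young, -0.49 with plain totals, -0.37 with all tubulin genes, -0.36 on CDS, -0.44 on 3′ UTR and -0.54 on 5′ UTR reads in old against young, and -0.28 with plain totals and -0.30 on 5′ UTR reads in ICM against old cells. In footprints alpha was -0.59 in ICM against young cells without the 3 lysates, and beta in old against young cells was -0.45 with plain totals and -0.31 with all tubulin genes. With all tubulin genes the alpha-to-beta ratio was 1.40 for young mRNA and 1.07 for old footprints. With 1 library left out, in the order ICM against young, old against young and ICM against old, alpha mRNA ranged from -1.05 to -1.002, -0.63 to -0.56 and -0.46 to -0.39, beta mRNA from -0.83 to -0.76, -0.41 to -0.38 and -0.43 to -0.36, alpha footprints from -0.45 to -0.067, -0.42 to -0.18 and -0.17 to 0.21, and beta footprints from -0.53 to -0.38, -0.38 to -0.33 and -0.18 to -0.020.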
